A study of Mus musculus with 2 samples.

Results

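The 40 genes described here encode proteins that sense, signal and repair DNA double-strand breaks (DSBs) or that resolve DNA interstrand crosslinks in the Fanconi anaemia pathway. They were listed by gene symbol for their role in repair, and each of the 40 symbols was found among the 22367 protein-coding genes of the GENCODE M1 annotation of mm9. The genes were searched for R-loop peaks in primary neural stem/progenitor cells (NSPCs). These cells had been cultured from the frontal brains of C57BL/6 mice at postnatal day 7. They were treated for 48 h with 0.5 μM aphidicolin, which inhibits DNA polymerases and slows replication forks, although the sample labels name no treatment. RNA:DNA hybrids had been recovered from restriction-digested genomic DNA with the S9.6 antibody and sequenced (DRIP-seq), and 1 list of 22132 peaks in mm9 coordinates was available. The list gives the position of each peak and neither its height nor its strand. Although 3 biological replicates lie behind the list, it has no replicate columns, and it has no untreated counterpart, so no error between replicates, no p-value and no effect of aphidicolin could be given, and the depth behind a peak is unknown. The input library was not analysed here. Of 10 markers of neural stem and progenitor cells, 7 held a peak, among them Nes, Sox2, Vim, Slc1a3, Notch1 and Olig2. Among markers of other cells, a peak was held by 1 of 6 neuronal markers (Gad1), 1 of 4 oligodendrocyte markers (Mbp), 2 of 5 microglial markers (Csf1r and Itgam) and 1 of 4 endothelial markers (Pecam1). Over all protein-coding genes the share with a peak was 39.6%, and the markers are too few to identify the cells. A peak shows that hybrids were recovered at a place and does not measure expression.

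R-loops form when nascent RNA pairs with its DNA template behind RNA polymerase and leaves the other DNA strand unpaired. They are known to form at gene starts and gene ends, and G-rich RNA makes the hybrid more stable. DSBs are rejoined by non-homologous end joining, which ligates the ends directly, or by homologous recombination, which copies the sister chromatid after the ends have been resected. The Fanconi proteins unhook crosslinks at stalled replication forks and pass the resulting breaks to homologous recombination. Neural progenitors are known for their need of end joining, since loss of its core factors in mice leads to death of newborn neurons.

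G-rich stretches were present at the starts of repair genes inside and outside peaks, and examples of both are shown to compare them. Each is the window of 60 bp in which G outnumbered C most in the first 1 kb of the transcript with the longest coding sequence, outside annotated exons. Windows were read 5′ to 3′ on the coding strand from the mm9 genome, and capitals mark runs of at least 3 G. By this transcript 3 genes had their start in a peak, and the windows of all 3 are given, for Rnf8 (chr17:29752028-29752087, plus strand), Xrcc6 (chr15:81846122-81846181, plus strand) and Atm (chr9:53343942-53344001, minus strand). The windows of Rnf8 and Xrcc6 lay in the peak, and that of Atm lay in the gene beyond its peak. Trp53bp1 (chr2:121096704-121096763, minus strand), Prkdc (chr16:15638682-15638741, plus strand) and Rif1 (chr2:51928421-51928480, plus strand) had their start outside peaks and were taken because their GC skew was among the highest, so they do not stand for all starts without a peak.
Rnf8: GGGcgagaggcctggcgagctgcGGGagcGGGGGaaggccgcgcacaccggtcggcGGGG
Xrcc6: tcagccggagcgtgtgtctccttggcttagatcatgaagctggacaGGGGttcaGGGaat
Atm: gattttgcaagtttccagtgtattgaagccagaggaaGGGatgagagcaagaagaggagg
Trp53bp1: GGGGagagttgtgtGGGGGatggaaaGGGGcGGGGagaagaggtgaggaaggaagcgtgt
Prkdc: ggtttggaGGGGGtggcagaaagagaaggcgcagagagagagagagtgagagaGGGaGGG
Rif1: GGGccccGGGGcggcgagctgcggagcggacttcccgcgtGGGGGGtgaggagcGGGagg

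The window of Rnf8 held 33 G and 16 C with 4 G runs, that of Xrcc6 21 G and 12 C with 2 runs, and that of Atm 22 G and 6 C with 1 run. Trp53bp1 had 35 G against 2 C, also with 4 runs, Prkdc 33 G against 3 C and Rif1 34 G against 15 C. Over the 33 windows of genes with their start outside peaks, the number of G ran from 14 to 39 with a median of 28, and the number of G runs from 0 to 7 with a median of 3. All 3 windows of genes with their start in a peak lay inside these ranges. Since every window was picked for its excess of G, these ranges cannot tell whether G-rich stretches go with peaks.

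Of the 40 repair genes, 14 (35.0%) overlapped at least 1 R-loop peak, compared to 39.6% of all protein-coding genes. Long and GC-rich genes held peaks more often, and the repair genes were long, with a median of 51.3 kb against 15.4 kb over protein-coding genes, and had a median GC content of 47.0% within 2 kb of the TSS against 48%. The share of genes with a peak was therefore taken, for each repair gene, from the 95 to 290 other protein-coding genes that fell into the same of 10 strata of length and the same of 10 strata of promoter GC. These shares summed to 18.7 genes with a peak, against the 14 observed. The number of peaks depended on the limits of the genes. The 35 peaks in repair genes compared to 35.7 gene and peak pairs computed from genes of like length and GC, but on the transcript with the longest coding sequence the number was 27 against 33.5. At least 2 peaks were found in 9 genes (22.5%), and 1 peak in 5 genes. The share of protein-coding genes with at least 2 peaks, not matched on length or promoter GC, was 18.0%. On the transcript with the longest coding sequence, Xrcc4 kept 0 peaks and Rnf8 kept 1, and the others of the 9 kept at least 2. The 3 genes with the most peaks, Parp1, Xrcc6 and Rnf8, held 15 of the 35 (42.9%). With no replicate values in the list, these differences have no error, and none is called a difference between repair genes and other genes.

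**Figure D1:**
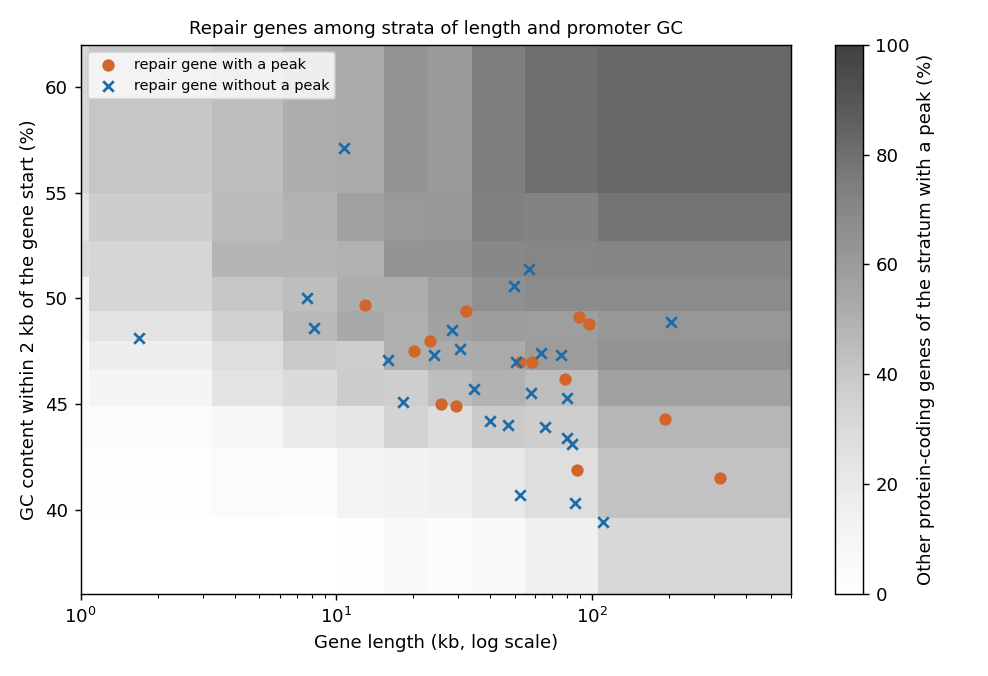
Each symbol is 1 of the 40 repair genes, placed by gene length (x axis, kb, log scale) and GC content within 2 kb of the start (y axis, %); grey shading gives the percentage of other protein-coding genes of the same stratum that held a peak. The 14 genes with a peak (circles) run from 13 to 316 kb and from 41.5 to 49.7% GC, and the 26 without (crosses) from 1.69 to 204 kb and from 39.4 to 57.1% GC.

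Genes with and without a peak had similar medians of length and promoter GC. Median length was 55.3 kb for the 14 genes with a peak (13 to 316 kb) and 49.9 kb for the 26 without (1.69 to 204 kb). Median promoter GC was 47.0% (41.5 to 49.7%) and 47.1% (39.4 to 57.1%). Among genes of like length and GC, the median share with a peak was 50.5% for the former and 45.5% for the latter. The shortest genes, Fancf (1.69 kb), Lig4 (7.67 kb), Fancg (8.16 kb) and Xrcc3 (10.7 kb), held 0 peaks.

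By role, the 40 genes fell into end joining, break signalling, break sensing and resection, homologous recombination, the Fanconi pathway and alternative end joining. The count with a peak was close to the computed number in end joining and break signalling. It was 3 of 7 against 3.05 in the former and 3 of 6 against 3.16 in the latter. In homologous recombination it was 3 of 9 against 4.40, in the Fanconi pathway 3 of 9 against 4.18, and in alternative end joining 2 of 3 against 1.5. None of the 6 sensing and resection genes held a peak, where 2.42 were computed. Peak numbers spread further, with 7 peaks in alternative end joining against 2.69 computed, 9 in end joining against 6.19, 8 in break signalling against 6.48, 6 in the Fanconi pathway against 8.12, 5 in homologous recombination against 7.74, and 0 in sensing and resection against 4.43. The counts above the computed number in end joining and break signalling rested on extended transcripts. On the transcript with the longest coding sequence, end joining had 5 peaks against 5.61 and break signalling 4 against 5.87. Alternative end joining still had 7 against 2.63, but this rested on 1 gene, as Parp1 held 6 of the 7, Lig3 1 and Polq 0.

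**Figure D2:**
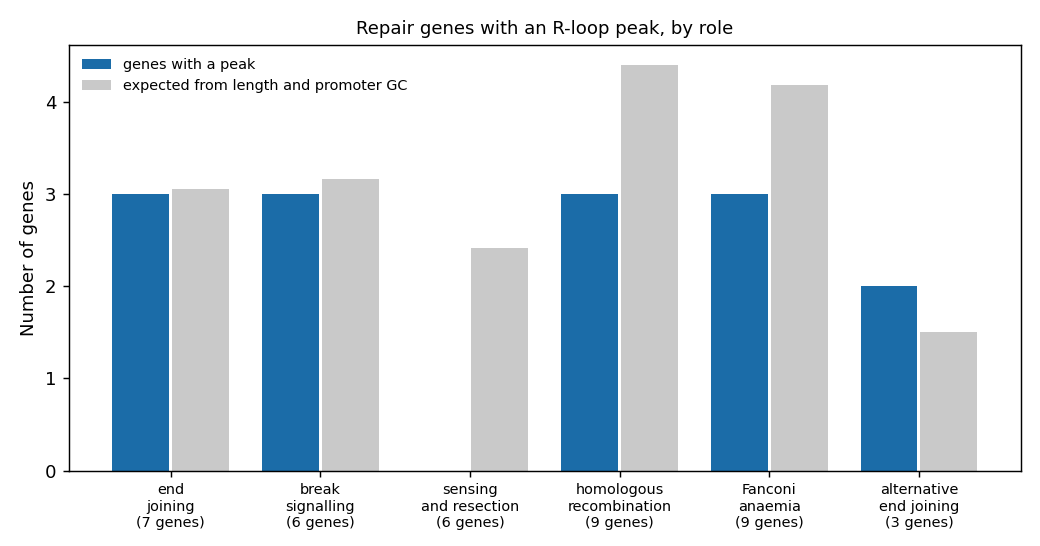
Bars give the number of repair genes of each role that held an R-loop peak (blue) and the number computed from protein-coding genes of like length and promoter GC (grey); roles and their gene numbers are on the x axis. The sensing and resection genes stand at 0 against 2.42, and the widest gap of the other roles is that of homologous recombination, 3 against 4.40.

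Ku binds broken ends first in non-homologous end joining, and its subunits are encoded by Xrcc6 (Ku70) and Xrcc5 (Ku80). Xrcc6 (ENSMUSG00000022471, chr15:81818265-81870515, plus strand) held 5 peaks that covered 34.8% of the gene, the largest covered share among the 40, where genes of like length and GC held 1.0 peaks on average. The peaks lay at 81819030 to 81822401, 81822727 to 81826055, 81843009 to 81847718, 81859632 to 81862845 and 81866971 to 81871447, and the last of them contained the TES. The first 2 of these peaks overlapped a single transcript with an early start and lay outside the transcript with the longest coding sequence. That transcript begins at 81845949, inside the peak of 4.71 kb, so that the Xrcc6 TSS lay in a peak by this transcript and outside by the gene limits. Pppde2, on the opposite strand, shared 3 of the 5 peaks. The peak of 4.71 kb lay wholly in Pppde2 and held 5 of its 6 annotated transcript starts, so it covered starts of both genes. Xrcc5 (chr1:72353995-72441526, plus strand) held 2 peaks, of 2.53 and 0.766 kb, both over coding exons in the first part of the gene, and 3.77% of it was covered.

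Xrcc4, the scaffold of the ligation complex, held 2 small peaks of 0.662 kb (chr13:89965426-89966087) and 0.289 kb (chr13:89978430-89978718) in its 316 kb, or 0.301% of its bases. Both lay only in the intron of an extended transcript and also in the long noncoding RNA gene Gm4117 on the opposite strand, and 0 peaks remained on the transcript with the longest coding sequence. The other end joining genes held 0 peaks. These were Lig4, the ligase that Xrcc4 binds, Prkdc, the catalytic subunit of DNA-PK, Dclre1c, which encodes the Artemis nuclease, and Nhej1, which encodes XLF. Prkdc is the longest gene without a peak, with 204 kb, and 62.1% of genes of its length and promoter GC held one.

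**Figure D3:**
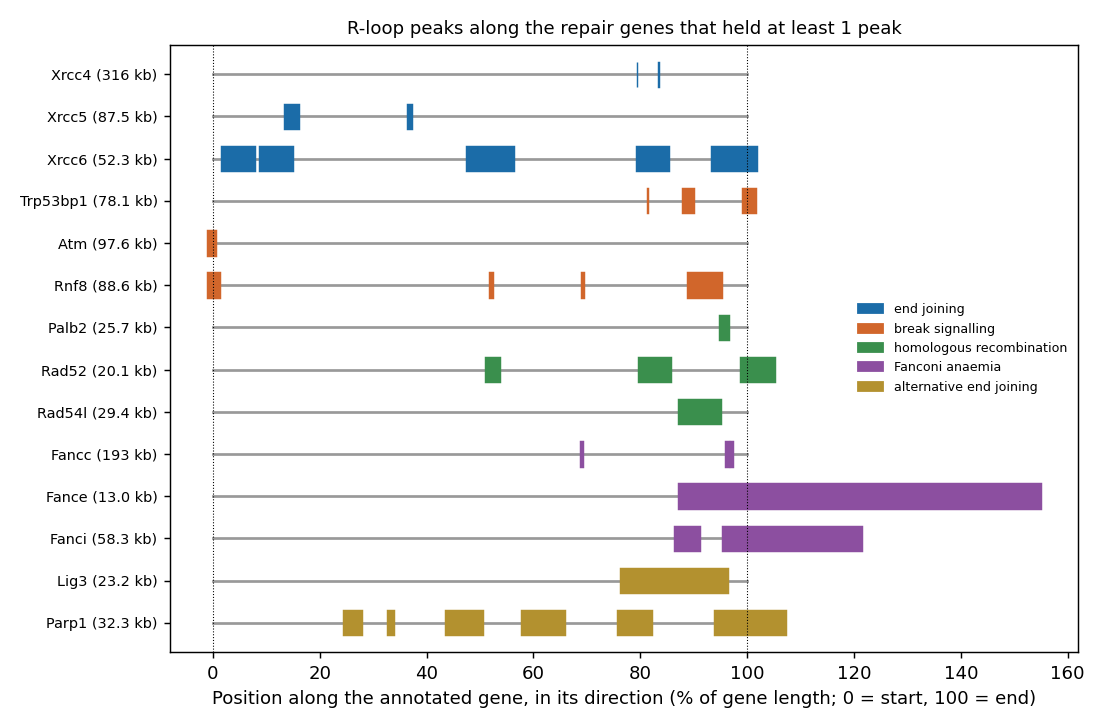
Each row is 1 of the 14 repair genes with a peak, drawn from its start (0%) to its end (100%) in its own direction, with gene length in parentheses; boxes are peaks to scale, coloured by role, and boxes past 100% run beyond the gene. Boxes lie towards the end in most rows, those of Atm and Rnf8 cover the start, and of the 3 Fancc peaks, 2 lie too close together to be told apart.

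Both genes whose annotated TSS lay in a peak belong to break signalling. This made 2 of 40 TSSs, compared to 14.9% of protein-coding genes and to 4.54 genes computed from length and promoter GC. Atm encodes the kinase that starts the signal at breaks. Its single peak, of 1.55 kb (ENSMUSG00000034218, chr9:53344342-53345893), covered its TSS and the TSS of Npat, a regulator of histone gene transcription that is transcribed the other way. Of this peak, 32.5% lay in Atm and 47.8% in Npat, and its GC content was 59.4%. The peak took up 0.516% of the 97.6 kb of Atm. Rnf8 (ENSMUSG00000090083, chr17:29751735-29840304, plus strand), a ubiquitin ligase that marks chromatin around breaks, held 4 peaks over 9.24% of its bases. The peak over its TSS, from 29750816 to 29752930, had a GC content of 53.9%. This peak also lay wholly within the annotated limits of Ftsjd2 on the same strand, and 0 of the 10 annotated Ftsjd2 transcript starts lay in it. The other 3 peaks, of 0.712 kb (29797454 to 29798165), 0.522 kb (29812708 to 29813229) and 5.76 kb (29830305 to 29836061), lay only in a read-through transcript that runs into Ftsjd2 on the same strand. The GC content of the peak of 0.712 kb was 67.7%, the highest among the 35, and 2 of the 10 annotated transcript starts of Ftsjd2 lay in it. By the transcript with the longest coding sequence, Rnf8 therefore held 1 peak. Trp53bp1, whose protein shields ends from resection, held 3 peaks in its last part, which covered 3.45% of it. They were 2.04 kb (chr2:121017743-121019786), 1.79 kb (chr2:121026815-121028607) and 0.136 kb (chr2:121033574-121033709) wide. The first of these contained the TES of a longer transcript and lay within Tubgcp4 on the opposite strand. The remaining signalling genes held 0 peaks. They were Mdc1, the adaptor that binds the phosphorylated histone H2AX, Rnf168, the ligase that acts after Rnf8, and Rif1, which acts with 53BP1.

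Sensing and resection had no peak in any gene. Mre11a, Rad50 and Nbn encode the complex that binds and trims broken ends, Rbbp8 encodes CtIP, which activates it, Exo1 encodes a nuclease for long resection, and Blm encodes the helicase mutated in Bloom syndrome. Between 20.7% (Mre11a) and 52.6% (Exo1) of the genes like each of them held a peak. The nearest peak lay 1.98 kb from Rad50, 12.3 kb from Nbn, 53.0 kb from Blm, 118 kb from Mre11a, 133 kb from Rbbp8 and 255 kb from Exo1.

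In homologous recombination, 6 of 9 genes held 0 peaks, namely Brca1 and Bard1, which form a ubiquitin ligase, Brca2, which acts on resected DNA, and Rad51c, Xrcc2 and Xrcc3, which act in strand exchange. Palb2, whose protein links BRCA1 to BRCA2, held 1 intronic peak of 0.467 kb with its midpoint at 95.7% of the gene length, and 1.82% of the gene was covered. Rad52, which anneals single strands, held 3 peaks over 10.4% of its 20.1 kb. The peak of 1.31 kb (chr6:119872574-119873881) contained its TES, the peak of 1.24 kb (chr6:119868731-119869968) overlapped coding exons, and that of 0.575 kb (chr6:119862970-119863544) lay wholly in annotated exon sequence. Rad54l, a motor protein that helps strand invasion, held 1 peak of 2.39 kb (chr4:115768314-115770699) over 8.11% of the gene, of which 56.0% also lay in Lrrc41, a gene that runs towards it from the opposite strand and whose TES was in the peak.

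Among the Fanconi genes, 3 held a peak. Fancc, a subunit of the core complex that attaches ubiquitin, held 3 peaks over 1.69% of its 193 kb, of 0.837 kb (chr13:63411273-63412109), 1.32 kb (chr13:63412684-63414000) and 1.09 kb (chr13:63465247-63466338), and the former 2 also lay in 2010111I01Rik on the opposite strand. Fance, the subunit that binds FANCD2, held 1 peak of 8.85 kb over its TES (chr17:28461836-28470687), and 12.9% of the gene was covered. Of this peak, 1678 bp lay in Fance, whereas it contained all of Rpl10a, which encodes a ribosomal protein of the large subunit, and reached the end of Tead3. Fanci, which encodes the partner of FANCD2 that is ubiquitinated with it, held 2 peaks over 9.58% of its bases. The narrower one, of 2.82 kb (chr7:86587221-86590043), overlapped coding exons. The wider one, of 15.3 kb (chr7:86592387-86607676), was the largest of the 35 and contained its TES, but 18.1% of it lay in Fanci and 91.6% in Polg, the gene of the mitochondrial DNA polymerase, which is transcribed towards Fanci. The core complex genes Fanca, Fancf, Fancg and Fancl, the translocase gene Fancm and Fancd2 held 0 peaks. Of the genes like Fancm, 71.0% held one, the highest share computed for any of the 40.

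In alternative end joining, Parp1 stood out by number. Parp1 (ENSMUSG00000026496, chr1:182499086-182531384, plus strand) encodes the enzyme that adds ADP-ribose chains at breaks, and its 6 peaks covered 32.8% of its 32.3 kb. Genes of like length and promoter GC held 0.976 peaks on average. In gene order the peaks lay at 182506951 to 182508107, 182509631 to 182510034, 182513136 to 182515412, 182517736 to 182520390, 182523513 to 182525639 and 182529412 to 182533765. Their sizes were 1.16, 0.404, 2.28, 2.65, 2.13 and 4.35 kb, the GC content lay between 48.7% and 53.0%, and the last peak contained the TES. The Parp1 TSS was in no peak, and the first peak had its midpoint 8.44 kb downstream of it. Each of the 6 overlapped the longest coding transcript and no other annotated gene, whereas 3 of the 5 Xrcc6 peaks and all 4 Rnf8 peaks overlapped another gene. Lig3, which joins ends in this pathway and in mitochondria, held 1 peak of 4.67 kb (chr11:82612274-82616944) over 20.2% of the gene, shared with the end of Rffl on the opposite strand. Polq, the polymerase that joins ends at short homologies, held 0 peaks.

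Stretches from 3 peaks away from a TSS are given as examples, each picked within its peak as was done for the starts. They come from the peak at the end of Parp1 (chr1:182529569-182529628, plus strand), the Lig3 peak (chr11:82613127-82613186, plus strand) and the intronic Palb2 peak (chr7:129251841-129251900, minus strand). Of the Parp1 peak, 45.3% lay in the gene. These 3 held the most G among the stretches read from peaks, so they do not stand for all peaks. By contrast, the stretch of the Rnf8 peak of 0.522 kb held 13 G and 6 C with 1 G run. That of the Fancc peak of 1.32 kb held 14 G and 13 C with 0 G runs.
Parp1: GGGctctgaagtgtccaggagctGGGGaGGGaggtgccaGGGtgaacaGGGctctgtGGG
Lig3: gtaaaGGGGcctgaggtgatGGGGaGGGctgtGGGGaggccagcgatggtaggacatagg
Palb2: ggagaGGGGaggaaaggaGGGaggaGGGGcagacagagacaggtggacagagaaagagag

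The Parp1 stretch held 6 G runs and 0 CpG. Lig3 had 31 G and 7 C, and Palb2 32 G and 4 C. Over the whole peak, G exceeded C on the coding strand in 20 of the 35, and the peaks of Parp1 and Lig3 shown here were not among them, with values of -0.019 and -0.013. These values are the skew, (G - C) / (G + C), whose extremes were 0.586 and -0.481, the former in a Xrcc4 peak and the latter in a Fancc peak.

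Gene ends, in contrast to gene starts, lay in peaks at least as often as elsewhere. The TES was in a peak in 6 genes (15.0%), which were Xrcc6, Trp53bp1, Rad52, Fance, Fanci and Parp1, compared to 10.9% of protein-coding genes and to 3.70 genes computed from length and promoter GC. Of the 29 peak midpoints that lay inside a repair gene, 13 (44.8%) were in the last 20% of the gene and 4 (13.8%) in the first 20%. Over protein-coding genes these shares were 25.1% and 25.7%. In the last 10% of the gene the repair genes had 20.7% against 14.3%, and in the first 10% they had 6.90% against 17%. The shares of midpoints over protein-coding genes were not matched on length or promoter GC. The 13 late midpoints came from 10 genes, with 2 each in Xrcc6, Trp53bp1 and Fancc, and peaks of 1 gene share its sequence and are not independent. Those in Xrcc4 and Rnf8 lay only in extended transcripts, and the other 11 on the transcript with the longest coding sequence. The late peaks of Xrcc4, Rad54l, Fancc, Lig3 and Rnf8 and 1 of the 2 in Xrcc6 also overlapped another gene. Those of Trp53bp1, Palb2, Rad52 and Fanci and the other in Xrcc6 overlapped none.

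The 35 peaks had a median size of 2.04 kb (0.136 to 15.3 kb), compared to 1.32 kb for the whole list, and a median GC content of 49.1% against 48.7%. The whole list also holds peaks outside genes, and no comparison was made with peaks of other protein-coding genes in size or GC content. A TSS was contained in 2 of the 35 and a TES in 6. A further 17 overlapped a coding exon and 1 a noncoding exon, and 9 (25.7%) lay wholly in introns, compared to 41.1% of the gene and peak pairs of protein-coding genes. Peaks covered 64.5 of the 2495 kb of repair genes, or 2.59%, against 3.81% of the bases of protein-coding genes. Sites of the 5 restriction enzymes used to cut the DNA were found no further than 100 bp from 28.6% of the 70 edges of these peaks and from 28.7% of all edges in the list.

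Many peaks of repair genes were shared with a neighbour. Of the 35, 17 (48.6%) also overlapped another annotated gene, compared to 22.8% of pairs of a protein-coding gene and a peak. A gene on the opposite strand was overlapped by 14 of the 35, against 17.7%. Extended transcripts contributed to this, as 8 peaks lay outside the transcript with the longest coding sequence. On that transcript alone, 10 of 27 peaks (37.0%) were shared, against 21.6% over protein-coding genes. The peaks of Rad54l, Fance, Fanci and Lig3 and 1 of those in Xrcc6 contained the end of a gene on the opposite strand, which made 5 of 35 (14.3%) against 7.72%. Because the list has no strand, the RNA of a repair gene and that of a neighbour on the opposite strand cannot be told apart as the source of a shared peak. Neighbours on the same strand, Ftsjd2 for the Rnf8 peaks and Rpl10a for the Fance peak, could not be told apart by strand either.

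Divergent starts were examined because 9 of the 40 genes have a protein-coding partner that starts within 1 kb on the opposite strand. Starts were taken from the gene limits, so Xrcc6 and Pppde2 are not among the pairs. These pairs were Lig4 and Abhd13, Prkdc and Mcm4, Atm and Npat, Brca1 and Nbr1, Palb2 and Dctn5, Rad51c and Tex14, Rad54l and Pomgnt1, Xrcc3 and Zfyve21, and Fancd2 and Tmem111. The TSS lay in a peak in 1 of the 9, Atm, compared to 421 of 1599 protein-coding genes with such a partner (26.3%). The sequence between the starts varied among the pairs. Intervals were read up to 300 bp, which cut those of Prkdc (465 bp) and Atm (306 bp). Over the 8 intervals other than that of Atm, GC content ran from 50.3 to 75.5% and the number of G runs from 0 to 5, in 20 to 300 bp read. The DNA between Atm and Npat (chr9:53344846-53345145, 63.7% GC, 32 CpG), which lay in the peak, is shown beside 3 intervals outside peaks, on the minus strand, which is the coding strand of these repair genes. They are the intervals of Rad51c and Tex14 (chr11:87218457-87218566, 75.5% GC), the richest in GC, of Rad54l and Pomgnt1 (chr4:115796296-115796444, 59.7% GC), and of Palb2 and Dctn5 (chr7:129276461-129276554, 60.6% GC). Palb2 and Rad54l held a peak towards their ends, and Rad51c and Tex14 held none.
Atm to Npat: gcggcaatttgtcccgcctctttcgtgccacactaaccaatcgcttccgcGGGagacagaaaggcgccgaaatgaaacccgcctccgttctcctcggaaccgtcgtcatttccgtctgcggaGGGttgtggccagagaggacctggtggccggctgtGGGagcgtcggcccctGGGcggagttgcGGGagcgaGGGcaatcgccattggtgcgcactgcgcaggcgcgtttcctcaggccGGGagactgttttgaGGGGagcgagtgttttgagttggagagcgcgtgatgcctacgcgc
Rad51c to Tex14: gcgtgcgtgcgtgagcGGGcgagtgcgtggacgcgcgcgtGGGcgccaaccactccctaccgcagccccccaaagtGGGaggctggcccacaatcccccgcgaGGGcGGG
Rad54l to Pomgnt1: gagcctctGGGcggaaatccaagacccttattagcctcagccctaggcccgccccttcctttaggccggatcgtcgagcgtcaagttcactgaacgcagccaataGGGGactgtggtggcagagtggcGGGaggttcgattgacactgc
Palb2 to Dctn5: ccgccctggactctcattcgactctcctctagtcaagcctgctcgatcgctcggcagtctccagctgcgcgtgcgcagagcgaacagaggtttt

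The 300 bp of Atm held 8 runs of at least 3 G, the 110 bp of Rad51c held 5, the 149 bp of Rad54l held 3, and the 94 bp of Palb2 held 0. Atm is a single case, and the part of these features in its peak was not tested.

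Only 2 genes had a peak at the TSS, which is too few to compare base composition at their starts with the rest. GC skew of the first 1 kb on the coding strand was above 0 in 30 of the 40 genes (75.0%), compared to 64.9% of protein-coding genes, with medians of 0.049 and 0.039. The highest values were those of Trp53bp1 (0.266), Brca1 (0.258), Prkdc (0.226), Rnf8 (0.184) and Rif1 (0.162). Among these 5, only Rnf8 had its TSS in a peak. Atm, the other gene with a peak at its TSS, had a skew of 0.079. The median ratio of observed to expected CpG was 0.804 in the repair genes, against 0.549 over protein-coding genes. Atm and Rnf8 lay above the medians of the repair genes in skew, in this ratio (0.919 and 0.864) and in promoter GC (48.8% and 49.1% against 47.0%). Median skew was 0.037 in the genes with a peak anywhere and 0.061 in those without.

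**Figure D4:**
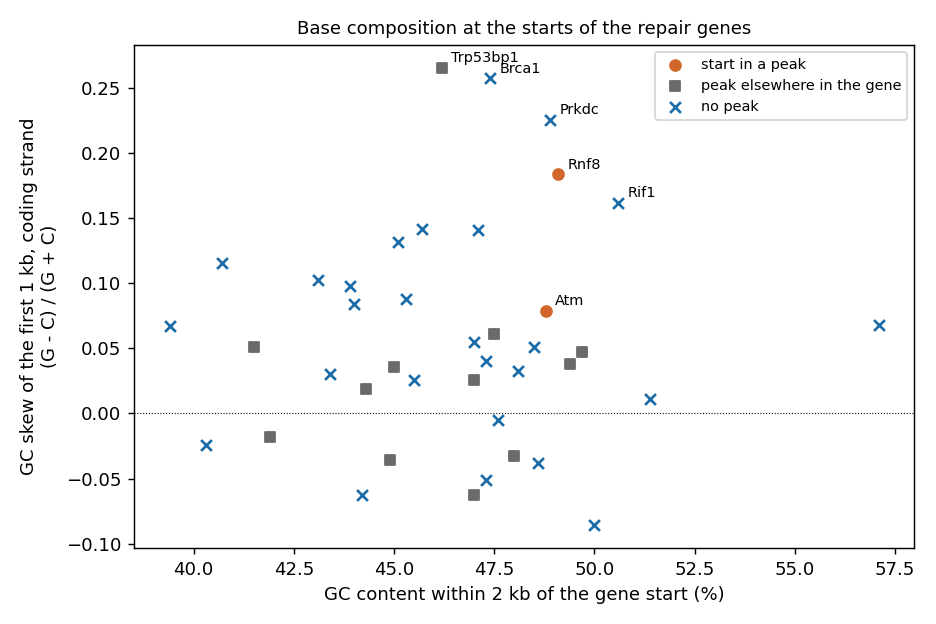
Each symbol is 1 of the 40 repair genes, placed by GC content within 2 kb of its start (x axis, %) and GC skew of its first 1 kb on the coding strand (y axis). Of the 5 genes with the highest skew (named), Rnf8 is the one with its start in a peak (orange circle), and Atm, the other orange circle, has a skew of 0.079.

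The 26 genes without a peak were not far from R-loops in most cases. The median distance to the nearest peak was 12.9 kb, compared to 51.5 kb for the 13493 protein-coding genes without a peak outside chromosome Y. Those genes were not matched to the repair genes on length or promoter GC. The nearest peak lay within 2 kb of 3 genes. It was 1.25 kb downstream of Fancg (chr4:43011954-43013968) and overlapped Vcp, 1.48 kb upstream of Fancm (chr12:66174259-66175109) over Fkbp3, and 1.98 kb downstream of Rad50 (chr11:53460123-53461042). Mdc1 followed with a peak 3.51 kb upstream (chr17:35966291-35974946), over Flot1 and Tubb5, and Prkdc with one 4.05 kb downstream (chr16:15846381-15846852). The distance was within 10 kb for 10 genes and within 100 kb for 19. In 20 of the 26 the nearest peak overlapped another gene. The other 7 genes had no peak within 100 kb, with distances of 486 kb for Bard1, 255 kb for Exo1, 207 kb for Fancf, 198 kb for Rad51c, 133 kb for Rbbp8, 118 kb for Mre11a and 104 kb for Xrcc2.

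**Figure D5:**
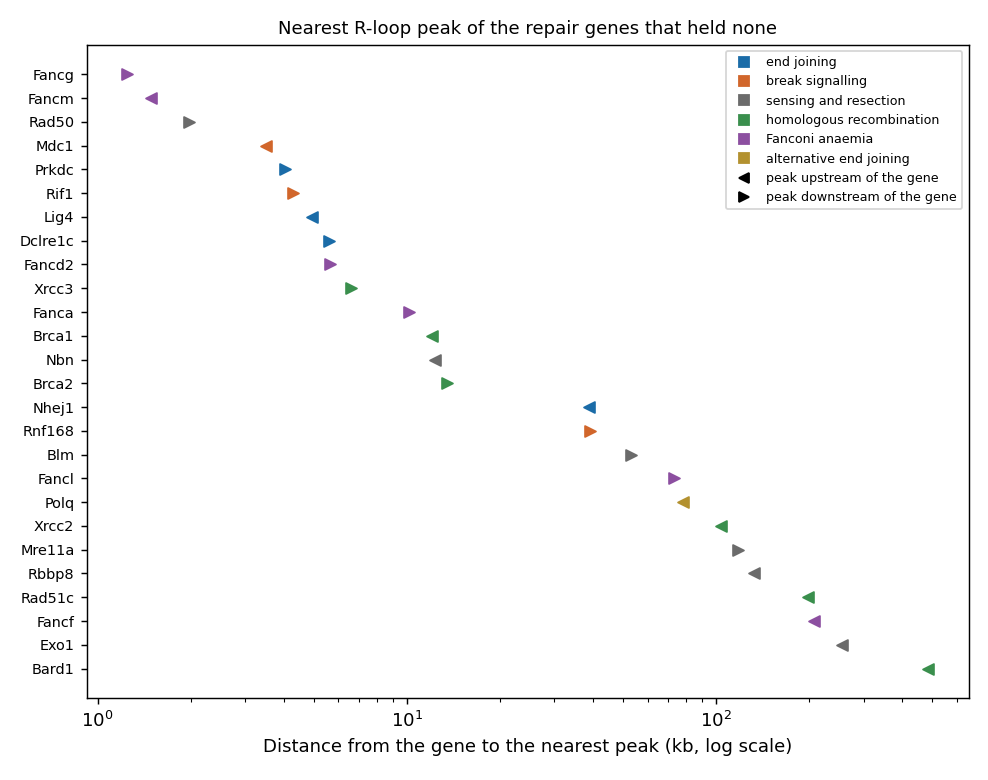
The 26 repair genes without a peak (y axis) are placed by the distance from the gene to its nearest R-loop peak (x axis, kb, log scale), coloured by role, with triangles pointing left for peaks upstream and right for peaks downstream of the gene. Distances run from 1.25 kb for Fancg to 486 kb for Bard1.

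A second list of repair genes was counted in the same way. It holds nucleases, helicases, ubiquitin factors, cohesin-like SMC proteins and single-strand break repair factors, and 57 of its 58 symbols were found in the annotation. A peak was found in 32 of the 57 (56.1%), where 28.0 were computed from length and promoter GC, compared to 14 against 18.7 in the main list. The TSS lay in a peak in 16 (28.1%) against 8.52 computed. These were Rad51l3, Bre, Mus81, Eme1, Rmi1, Top3a, Wrn, Usp1, Wdr48, Xrcc1, Tdp2, H2afx, Kat5, Nsmce2, Rnf169 and Lig1. Among them are Usp1 and Wdr48, which remove ubiquitin from FANCD2, and Rmi1 and Top3a, which act with BLM. Fancd2 and Blm had no peak at the TSS, but only 2 of the 40 genes of the main list had one. Such pairings therefore carry no information on the lists. The TES lay in a peak in 12 (21.1%) against 6.68 computed. The TSS count was thus above the computed number in the second list and below it in the main list, and the difference between the lists was not tested.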

How the data were processed

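R-loop peaks of primary NSPCs were taken from 1 deposited list, whose values are positions in base pairs, the start and the end of every peak, without height or read number. Per the labels and the methods, the authors trimmed reads with Trim Galore 0.6.6, aligned them to mm9, dropped duplicate reads and used a Hidden Markov Model to call peaks. The aligner and the way replicates were combined are not given in the sources used here. Digestion with EcoRI, HindIII, BsrGI, SspI and XbaI before precipitation limits how closely a peak edge marks the end of an R-loop.

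Peak positions were compared with GENCODE M1 and the mm9 genome, and 1 shared bp made an overlap. Expected numbers are sums, over genes, of the share with a peak among other protein-coding genes in the same of 10 strata of length and of 10 strata of promoter GC (2 kb on each side of the TSS). Calculations used Python 3.11.15 and numpy 2.4.6, and figures matplotlib 3.10.9. The overlap and stratum steps were tested on simulated data. Every gene of the main list is named with its peak number, and positions are given for genes with a TSS in a peak, the most peaks, the largest covered shares, a shared peak or the nearest peaks. Results for some marker genes are not reported here. Genes of the second list are named where their TSS lay in a peak. The members and lists were chosen with earlier results of these data known. Alternatives were the peak size, merging of close peaks, the overlap rule, the gene limits and the strata. Limits by transcript were added after seeing the data.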

Additional observations from a re-analysis of the deposited data

How the results depend on the processing

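The number of repair genes with a peak lay between 12 and 17 under 7 alternatives, and the observed number stayed below the one computed from length and promoter GC in each alternative run for both. The difference was smallest with peaks of at least 1 kb alone, at 12 observed against 13.6 computed. The number of TSSs in a peak rose from 2 to 4, with the addition of Xrcc6 and Rad52, when the start of any annotated transcript was counted, a choice made after seeing the data that also raised the share over protein-coding genes to 19.4%. By the transcript with the longest coding sequence, also chosen later, 13 genes held a peak, 3 TSSs and 6 TESs lay in peaks, and 27 peaks overlapped repair genes, against 33.5 computed in the same way. The number of TESs lay between 5 and 9, the number of peaks between 25 and 38, the second list between 26 and 33 genes, and protein-coding genes with a peak between 7104 and 10116. No paired analysis was possible because 1 list without replicate columns was used. Depth and peak height are unknown, so a gene without a peak may hold R-loops below the limit of detection.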
